A study of Mus musculus with 6 samples.

Results

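The transcripts of 44 genes that copy and divide the genome were followed in blood stem and progenitor cells that had lost Asxl2, a chromatin regulator of the Polycomb and Trithorax network. The genes were taken by symbol from a list and make up 44 of the 24063 gene symbols in the count files. They comprised 28 S-phase genes, which act at the G1/S step and in DNA replication. The other 16 were grouped as mitotic genes, most of which act in chromosome segregation and division. Expression was measured by RNA-seq in LSK cells, the lineage-negative, Sca-1 positive, c-Kit positive fraction of bone marrow, with 3 Asxl2-/- and 3 wild type control libraries. All 6 libraries came from C57BL/6 mice that carried the Mx1-cre transgene and had been injected with pIpC, so Cre and the inducing agent were shared by both groups. In the Asxl2-/- group the floxed exon 11 of Asxl2 is removed by Cre, which the interferon-inducible Mx1 promoter drives in blood cells and in other tissues that respond to pIpC. LSK cells are a sorted mixture of stem and multipotent progenitor cells, and neither the age nor the sex of the mice is given in the labels. No member passed an adjusted p of 0.05. The S-phase level relative to the mitotic level was lower in every Asxl2-/- library than in the controls. This is a description, with no test and no background share.

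Before a cell copies its DNA, replication origins are licensed in G1, when the origin recognition complex, Cdc6 and Cdt1 load the MCM2-7 helicase onto chromatin. Cyclin E with its kinase and the E2F transcription factors then open S phase, the helicase is switched on by Mcm10, Cdc45 and the GINS complex, and polymerases, the PCNA clamp and its loader copy the strands. Genes of mitosis are made later, in G2 and M, and their products condense, align and separate the chromosomes. In bone marrow most long-term stem cells are quiescent, while many progenitors cycle. Which of these cells supplied the transcripts of either class was not measured.

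The classes are known to be switched on from different promoter elements, so the deposited gene positions were set beside RefSeq promoters of build GRCm38.p6, the assembly that mm10 holds. A window from 250 bases before to 50 bases after the transcript start was found for 36 of the 44 members, 23 of S phase and 13 of mitosis, among 27025 windows of all genes. Both strands were searched for an E2F site (TTTCCCGC, TTTCGCGC, TTTGCCGC or TTTGGCGC), for the CCAAT box (CCAAT) and for the cell cycle homology region or CHR (TTTGAA). None of these motifs contains another, although 2 E2F matches can overlap each other. The 160 bases before the start are shown for 6 members, on the strand of the gene, with motif matches in capitals. Cdc6 and Orc1 stand for the licensing genes with low levels in Asxl2-/- libraries, Mcm6 for a licensing gene with no such difference, Cdc20 for a mitotic gene with low levels, Top2a for one with higher levels, and Cdk1 is the only mitotic member among the 13 with an E2F match. In order they lie at chr11:98907991-98908150 (+), chr4:108579294-108579453 (+), chr1:128359706-128359865 (-), chr4:118437344-118437503 (-), chr11:99024190-99024349 (-) and chr10:69352913-69353072 (-).
Cdc6: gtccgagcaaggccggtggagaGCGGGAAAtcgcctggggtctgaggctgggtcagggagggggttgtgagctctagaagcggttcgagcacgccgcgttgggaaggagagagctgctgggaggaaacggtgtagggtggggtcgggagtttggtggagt
Orc1: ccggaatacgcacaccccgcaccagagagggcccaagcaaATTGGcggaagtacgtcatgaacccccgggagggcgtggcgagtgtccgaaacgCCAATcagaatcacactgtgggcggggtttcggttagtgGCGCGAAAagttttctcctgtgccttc
Mcm6: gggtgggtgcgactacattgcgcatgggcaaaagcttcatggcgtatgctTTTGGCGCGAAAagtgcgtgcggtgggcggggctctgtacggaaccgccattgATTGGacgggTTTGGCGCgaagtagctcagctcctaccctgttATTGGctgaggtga
Cdc20: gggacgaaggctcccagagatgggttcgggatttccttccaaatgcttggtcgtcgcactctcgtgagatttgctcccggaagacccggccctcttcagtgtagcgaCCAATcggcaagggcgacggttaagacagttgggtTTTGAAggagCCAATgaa
Top2a: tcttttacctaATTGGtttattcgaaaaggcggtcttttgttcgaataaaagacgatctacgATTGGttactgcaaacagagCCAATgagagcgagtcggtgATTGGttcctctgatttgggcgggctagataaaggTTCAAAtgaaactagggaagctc
Cdk1: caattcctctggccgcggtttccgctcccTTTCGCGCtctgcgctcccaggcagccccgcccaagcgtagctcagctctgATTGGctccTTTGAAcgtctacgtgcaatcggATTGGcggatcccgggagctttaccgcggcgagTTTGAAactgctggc

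In these sequences GCGGGAAA and GCGCGAAA are E2F matches read on the opposite strand, ATTGG is a CCAAT box and TTCAAA a CHR on the opposite strand. The first capital run of Mcm6 holds 2 overlapping E2F matches. An E2F match was present in 10 of 23 S-phase windows (43.5%) and in 1 of 13 mitotic windows (7.69%), against 2.32% of all windows. A CHR match was present in 9 of 13 mitotic windows (69.2%) and in 2 of 23 S-phase windows (8.7%), those of Mcm2 and Cdc45, against 18.1% of all windows. The CCAAT box was frequent in both classes (69.6% and 92.3%, against 37.9% of all windows). These matches describe letters in a window and were not tested as binding sites.

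**Figure D1:**
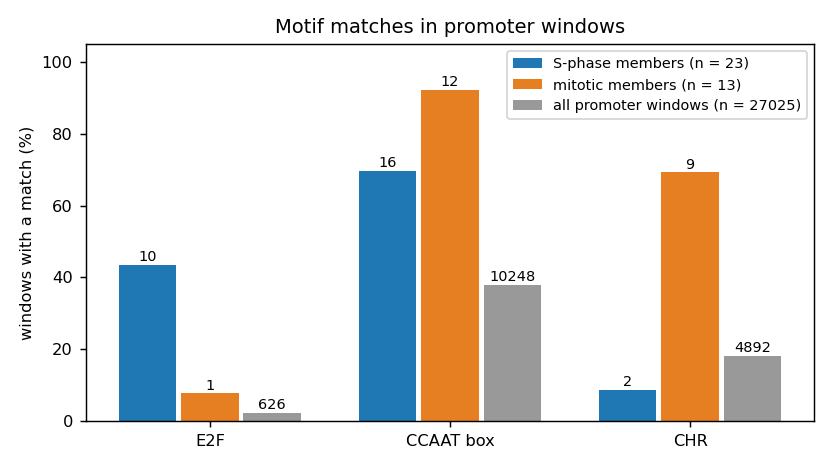
Share of promoter windows (%) with at least 1 match to the E2F, CCAAT box or CHR motif, for 23 S-phase members, 13 mitotic members and all 27025 windows, with the number of windows above each bar. E2F matches are mostly in S-phase members (43.5% against 7.69%) and CHR matches mostly in mitotic members (69.2% against 8.7%).

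The count files were of 2 kinds, which bears on each comparison. Asxl2-/- replicates 1 and 3 and control replicate 2 had 1 count per transcript (gene-count files), whereas Asxl2-/- replicate 2 and control replicates 1 and 3 had 1 count per exon (exon-count files), which were summed here. Totals ran from 25528540 to 29136012 counts in gene-count files and from 53147729 to 55032075 in exon-count files, where a read across a splice junction can add to more than 1 exon, and how far this or the sequencing depth made the totals differ was not tested. Levels of members were therefore read within a kind of file, and the kind was a covariate in the test. The targeted exon 11 of Asxl2 held 28 counts in Asxl2-/- replicate 2 and 457 and 492 in control replicates 1 and 3, while total Asxl2 was at 90.3, 85.1 and 86.6 counts per 1000000 (CPM) in these libraries. In the gene-count files, which do not resolve exons, total Asxl2 was at 125 and 148.5 CPM in the Asxl2-/- libraries and 123 CPM in the control library, a measure that does not check the labels. Xist was at 1071 to 2351 CPM in the Asxl2-/- libraries and at 13.0 to 61.3 CPM in the controls, and 4 Y-linked genes summed to at most 0.094 CPM in the Asxl2-/- libraries and to 213 to 268 CPM in the controls, so genotype and sex cannot be told apart. Kit, which encodes the c-Kit of the gate, was at 280.0 to 431 CPM. Ly6a, which encodes its Sca-1, was at 52.6 and 57.6 CPM in the Asxl2-/- gene-count files against 260 CPM in the control one, and at 69.1 CPM in the Asxl2-/- exon-count file against 40.5 and 148 CPM in the controls, where the Asxl2-/- value lay between the controls (log2 fold change -1.34, edgeR adjusted p = 0.187, SE 0.56). The 6 lineage markers summed to 56.3 to 90.1 CPM.

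Across all genes, edgeR called 331 of 14145 genes tested at an adjusted p under 0.05 (2.34%), and all 44 members passed the filter on low counts and were tested. None of the 44 members was called by edgeR, the smallest adjusted p being 0.056 for Ccne1. At an unadjusted p under 0.05 in the same edgeR fit, 11 of 28 S-phase members (39.3%) and 3 of 16 mitotic members (18.8%) were lower in Asxl2-/- cells, against 12.6% of all genes tested. The opposite direction was met by 1 S-phase member, E2f2, and by 0 mitotic members, against 15.0% of all genes. With DESeq2, 10 members were called (Orc1, Cdc6, Cdt1, Mcm5, Mcm10, Fen1, Ccne1, Plk1 and Cdc20 lower, E2f2 higher), against 16.1% of all genes. With limma-voom only Ccne1 was called, against 3.04% of all genes. Without control replicate 1, edgeR called 8 members (Orc1, Cdc6, Cdt1, Mcm10, Fen1, Ccne1, Plk1 and Cdc20), against 9.33% of the genes tested in that fit, whereas leaving out any other library left 0. The unadjusted count of 11 S-phase members became 5 without control replicate 2 and 7 without Asxl2-/- replicate 1, Asxl2-/- replicate 3 or control replicate 3, and the count of 3 mitotic members became 0 without control replicate 2, 1 without Asxl2-/- replicate 2 and 5 without control replicate 1.

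Levels were also compared without a test, within each kind of file. In 15 of 28 S-phase members (53.6%) every Asxl2-/- library was below every control library of its kind, against 23.3% of all genes tested. This was so for 5 of 16 mitotic members (31.2%), namely Plk1, Aurka, Birc5, Bub1b and Cdc20. Without control replicate 1 the counts were 20 and 9, against 32.4% of all genes. Every Asxl2-/- library was above the controls of its kind in 3 S-phase members (Pola1, Prim1 and E2f2) and in 3 mitotic members (Kif11, Top2a and Mki67), against 25.4% of all genes. The median log2 fold change, Asxl2-/- minus control, was -0.18 over the S-phase members and -0.07 over the mitotic members, beside 0.00 over all genes tested. The median log2 fold change of the mitotic members was -0.01 without control replicate 3, -0.12 without control replicate 1 and -0.10 without Asxl2-/- replicate 3. The fold changes of the gene-count files and of the exon-count files, which share no library, were both negative in 29 of 44 members, against 34.5% of all genes, and both positive in 7, against 33.5%. Across the members the 2 sets of fold changes had a Pearson r of 0.79, and across all genes tested it was 0.36. This is a description, since genes are not independent replicates. The members were not matched with the other genes by expression level, so the 2 values of r are not directly comparable. In bulk RNA, fewer cells in a cycle phase and less RNA per cell cannot be told apart.

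**Figure D2:**
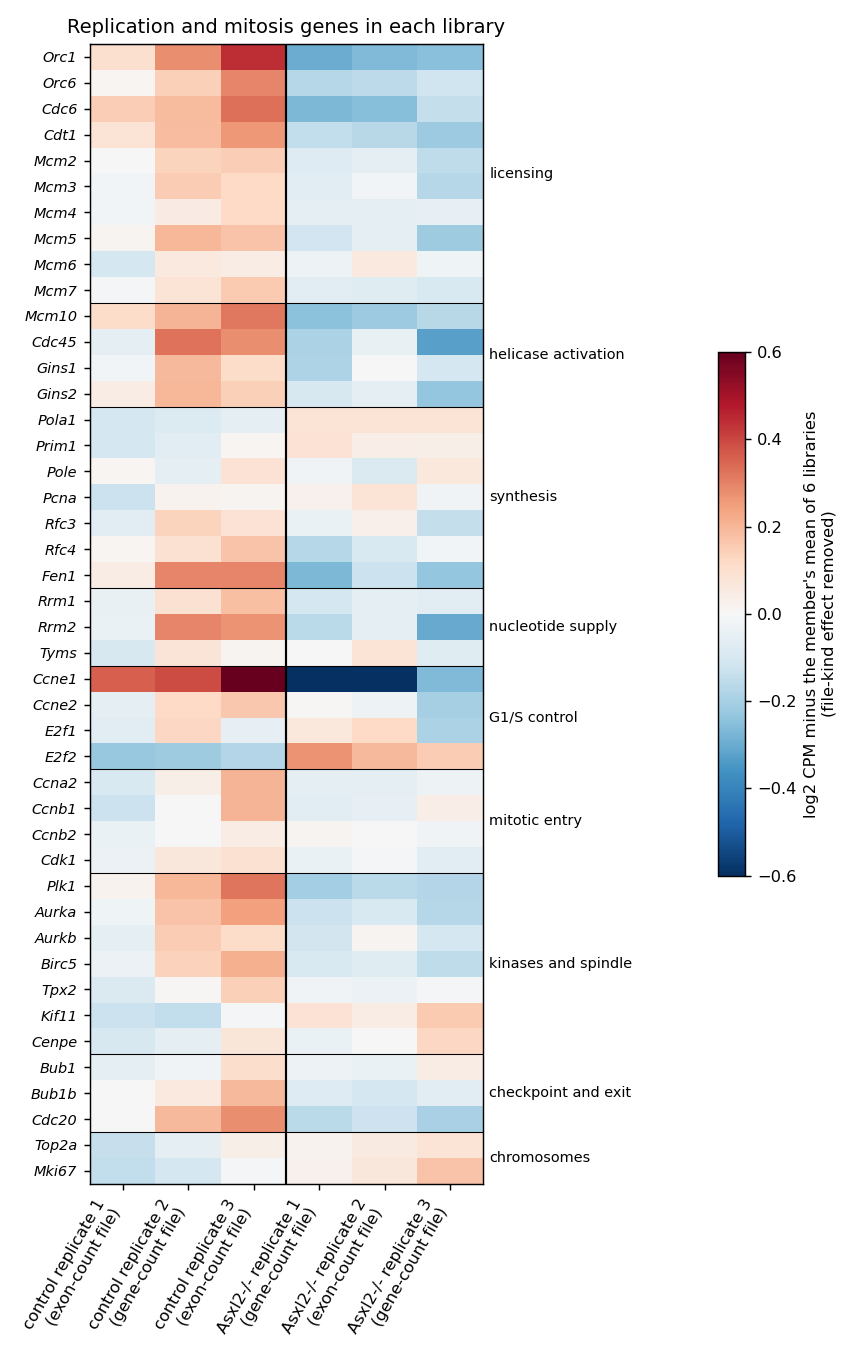
Level of the 44 members (rows, by role) in each of the 6 libraries (columns), as log2 CPM after removal of the file-kind effect minus the member's mean over the 6 libraries. Blue is below and red above that mean. Most S-phase rows are red in control replicates 2 and 3 and blue in the Asxl2-/- libraries, with E2f2 and Pola1 the reverse.

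**Figure D3:**
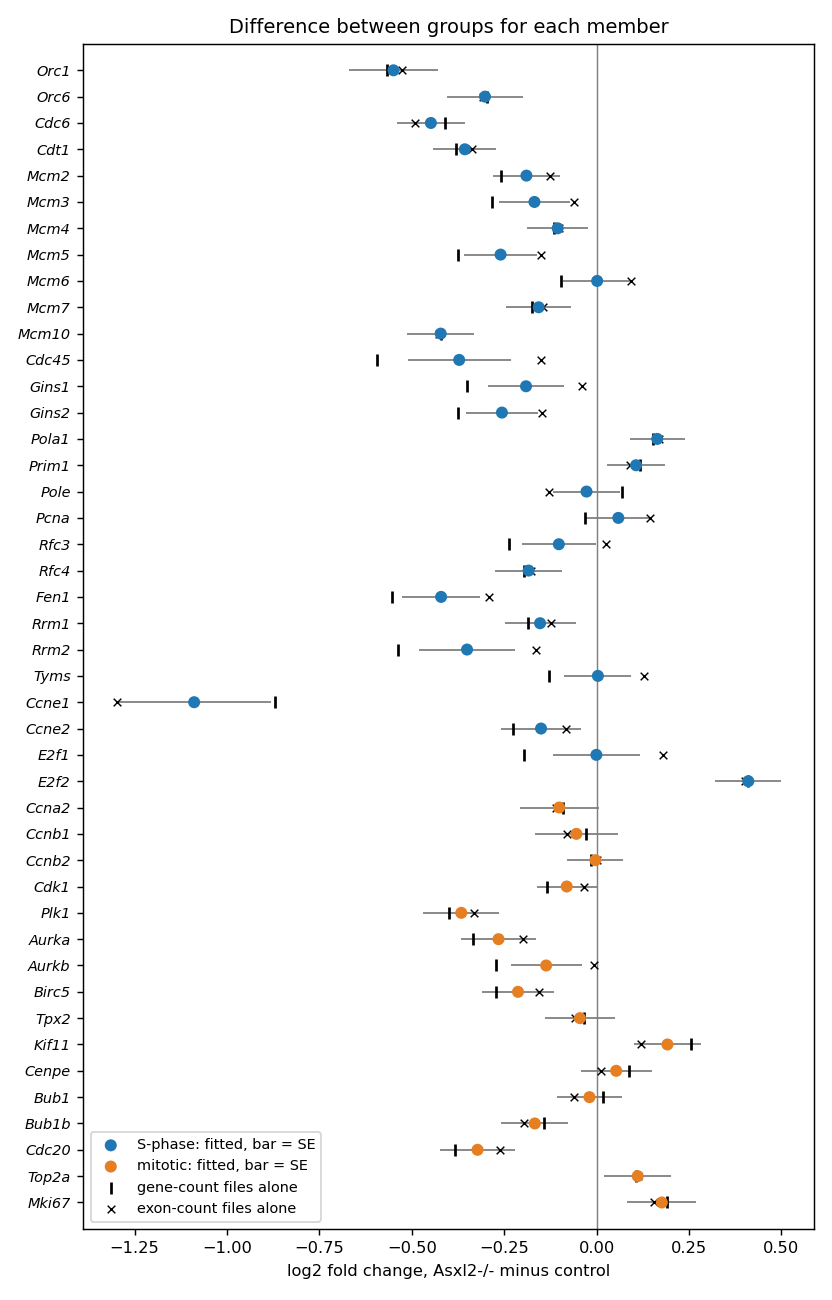
Log2 fold change of each member, Asxl2-/- minus control, from the edgeR fit over 6 libraries (points, with bars of 1 SE, S-phase in blue and mitotic in orange), with the values of the gene-count files alone (ticks) and the exon-count files alone (crosses). Ccne1 lies lowest at -1.09 and E2f2 highest at 0.41, and the other members lie between -0.55 and 0.19.

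The G1/S regulators held the most extreme values of the list, in opposite directions. Ccne1 (NM_007633, mm10 chromosome 7, 38097984 to 38107490) encodes cyclin E1, which with Cdk2 drives cells into S phase. It was at 31.7, 41.9 and 41.9 CPM in Asxl2-/- replicates 1 to 3 and at 86.6, 66.1 and 124 CPM in control replicates 1 to 3. Within each kind of file the Asxl2-/- libraries were below the controls. With the kind of file removed, Ccne1 averaged 5.33 ± 0.24 log2 CPM in Asxl2-/- cells and 6.41 ± 0.29 in control cells (SD, n = 3), a log2 fold change of -1.09 (edgeR adjusted p = 0.056, SE 0.21). It was -0.87 in gene-count files and -1.30 in exon-count files. All 12 exons of Ccne1 were below both controls in the Asxl2-/- exon-count library, with log2 ratios from -1.45 to -1.19. The related Ccne2, cyclin E2, had a log2 fold change of -0.15 (edgeR adjusted p = 0.396, SE 0.11), but 55.7% of its exon bases overlap Ints8 and the reads are unstranded, so its counts are uncertain.

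E2f2 (NM_177733, chromosome 4, 136172394 to 136196056), an activator E2F of S-phase genes, was the only S-phase member with an unadjusted p under 0.05 in the upward direction. It was at 50.3 and 46.4 CPM in the Asxl2-/- gene-count files and at 36.1 CPM in the control one, and at 34.03 CPM in the Asxl2-/- exon-count file and 25.4 and 26.3 CPM in the control ones. Within each kind of file the groups did not overlap. Its log2 fold change was 0.41 (edgeR adjusted p = 0.068, SE 0.089), with 0.41 and 0.40 in the 2 kinds of file. All 7 exons were above both controls in the exon-count files. E2f1, which also activates S-phase genes, had a log2 fold change of 0.00 (edgeR adjusted p = 0.999, SE 0.12), from -0.20 in gene-count files and 0.18 in exon-count files.

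Among the 10 licensing genes, 9 had a negative fold change in both kinds of file and 8 were below every control library of their kind, against 34.5% and 23.3% of all genes. Their median log2 fold change was -0.22. The values were lowest for the factors that load the helicase and less so for the helicase subunits. Orc1 (chromosome 4, 108579454 to 108614831), a subunit of the origin recognition complex, was at 23.95 and 24.8 CPM in the Asxl2-/- gene-count files and 35.8 CPM in the control one, and at 29.8 CPM in the Asxl2-/- exon-count file and 38.3 and 48.7 CPM in the controls. Its log2 fold change was -0.55 (edgeR adjusted p = 0.071, SE 0.12), and all 17 exons were below both controls. Cdc6 (chromosome 11, 98908151 to 98923942), which brings the loading machinery to the origin, was at 85.5 and 93.3 CPM against 118 CPM in the gene-count files and at 89.2 CPM against 118 and 134 CPM in the exon-count files. The Cdc6 values of the groups did not overlap within a kind of file, and the log2 fold change was -0.45 (edgeR adjusted p = 0.065, SE 0.092). Cdt1, the partner of Cdc6 in loading, was at 104 and 99.6 CPM against 132 CPM in the gene-count files and at 116 CPM against 138 and 156 CPM in the exon-count files. It had a log2 fold change of -0.36 (edgeR adjusted p = 0.078, SE 0.085), and each of its 10 exons and each of the 12 exons of Cdc6 was below both controls.

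Orc6, the smallest subunit of the origin recognition complex, had a log2 fold change of -0.30 (edgeR adjusted p = 0.132, SE 0.10), and its 7 exons were all below both controls. The 6 subunits of the MCM2-7 helicase ranged from -0.26 for Mcm5 to 0.00 for Mcm6. Mcm5 was at 433 and 405 CPM against 539 CPM in the gene-count files and at 611 CPM against 645 and 718 CPM in the exon-count files, with no overlap within a kind (edgeR adjusted p = 0.157). Mcm6 was at 715 and 717 CPM against 759 CPM in the gene-count files and at 948 CPM against 845 and 939.9 CPM in the exon-count files, so its order was not the same in the 2 kinds of file. Mcm2 had a log2 fold change of -0.19 (edgeR adjusted p = 0.224, SE 0.090). The promoters of Cdc6, Orc1 and Mcm6 shown above each hold an E2F match. Over the 10 S-phase members with such a match the median log2 fold change was -0.16, and over the 13 without a match it was -0.19.

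**Figure D4:**
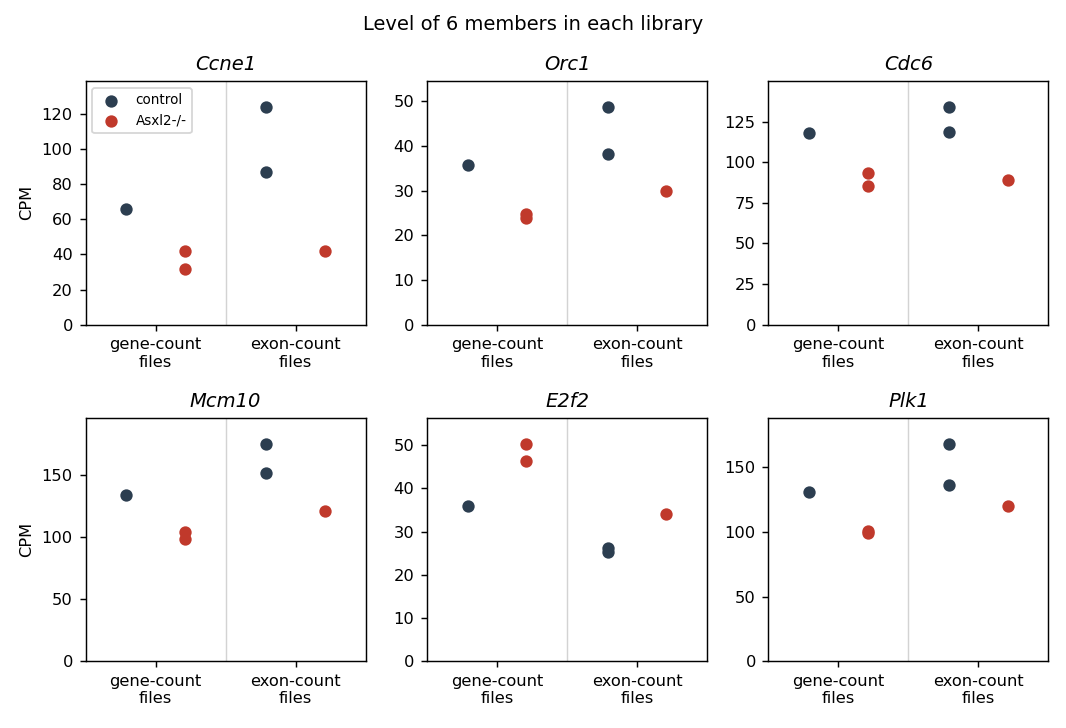
CPM of Ccne1, Orc1, Cdc6, Mcm10, E2f2 and Plk1 in each library, 1 point per library, with gene-count files on the left and exon-count files on the right of each panel. Asxl2-/- libraries lie below the controls of the same kind in every panel except E2f2, where they lie above.

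The 4 genes that switch the loaded helicase on all had negative fold changes in both kinds of file, against 34.5% of all genes. Their median log2 fold change was -0.31. Mcm10 (chromosome 2, 4990724 to 5012791), which joins the helicase to the polymerase machinery, was at 98.3 and 104 CPM against 134 CPM in the gene-count files and at 121 CPM against 152 and 175 CPM in the exon-count files. The groups did not overlap within a kind, the log2 fold change was -0.42 (edgeR adjusted p = 0.068, SE 0.090) and all 20 exons were below both controls. Cdc45, a part of the active helicase, had a log2 fold change of -0.37 (edgeR adjusted p = 0.156, SE 0.14), with -0.59 in gene-count files and -0.15 in exon-count files, where the Asxl2-/- library, at 119 CPM, lay between the controls at 118 and 149 CPM. The GINS subunits Gins1 and Gins2 had log2 fold changes of -0.19 and -0.26, with 11.4% of the exon bases of Gins2 overlapping Gse1.

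The 7 genes of DNA synthesis were split. Fen1, the nuclease that trims the primers of Okazaki fragments, was at 137 and 140 CPM against 201.5 CPM in the gene-count files and at 107.5 CPM against 121 and 144 CPM in the exon-count files. Its log2 fold change was -0.42 (edgeR adjusted p = 0.084, SE 0.11), and the Asxl2-/- library was lowest in each of its 2 exons. Pola1 and Prim1, subunits of the primase-polymerase complex that starts each strand, lay on the other side. Its subunits Pola2 and Prim2, which are not members, had log2 fold changes of -0.31 and -0.14 (edgeR adjusted p = 0.094 and 0.336). For Pola2 and Prim2 every Asxl2-/- library was below the controls of its kind. Pola1, the catalytic subunit of polymerase alpha, was at 194 and 194 CPM against 173 CPM in the gene-count files and at 251 CPM against 220 and 228 CPM in the exon-count files, a log2 fold change of 0.16 (edgeR adjusted p = 0.212, SE 0.075). This gene is on the X chromosome, so genotype and sex cannot be told apart for it either. Prim1, the small primase subunit, had a log2 fold change of 0.11 (edgeR adjusted p = 0.407, SE 0.079), with the Asxl2-/- libraries above the controls of their kind.

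Pcna, which encodes the sliding clamp of the polymerases, was at 338 and 327 CPM against 337 CPM in the gene-count files and at 406 CPM against 351 and 388 CPM in the exon-count files. Its groups overlapped in the gene-count files, and its log2 fold change was 0.06 (edgeR adjusted p = 0.706, SE 0.090). Pole, the catalytic subunit of polymerase epsilon, was at -0.03, and the clamp loader subunits Rfc3 and Rfc4 were at -0.10 and -0.18, with 13.2% of the exon bases of Rfc4 overlapping Eif4a2. Of the genes that supply nucleotides, Rrm2, the regulated subunit of ribonucleotide reductase, was at 200.4 and 182 CPM against 275 CPM in the gene-count files and at 238 CPM against 240.4 and 297 CPM in the exon-count files. In the exon-count files the Asxl2-/- value was close to control replicate 1. The log2 fold change of Rrm2 was -0.35 (edgeR adjusted p = 0.153, SE 0.13), that of its partner subunit Rrm1 was -0.15 and that of Tyms, thymidylate synthase, was 0.00.

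Of the 16 mitotic members, 12 had a negative and 4 a positive log2 fold change, with a median of -0.07. The 4 genes of mitotic entry, the cyclins Ccna2, Ccnb1 and Ccnb2 and their kinase Cdk1, lay between -0.10 and 0.00, and none of them separated the groups. Cdk1, which drives entry into mitosis, was at 164 and 161 CPM against 177 CPM in the gene-count files and at 211 CPM against 207.5 and 227 CPM in the exon-count files (log2 fold change -0.08, edgeR adjusted p = 0.548, SE 0.081). Ccnb1, the cyclin B1 partner of Cdk1, was at 130 and 139 CPM against 136 CPM and at 142 CPM against 134 and 169 CPM, with overlap in both kinds of file. Part of Ccna2, 13.5% of its exon bases, overlaps Exosc9.

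Of the mitotic kinases and spindle genes, Plk1 (chromosome 7, 122159437 to 122169875), the Polo kinase of mitotic entry and centrosome maturation, had the smallest p among mitotic members. It was at 99.0 and 100.6 CPM against 131 CPM in the gene-count files and at 120 CPM against 136 and 168 CPM in the exon-count files. No Asxl2-/- library reached a control of its kind, all 10 exons were below both controls, and the log2 fold change was -0.37 (edgeR adjusted p = 0.0999, SE 0.10). Aurka, the centrosomal Aurora kinase, was at -0.27 (edgeR adjusted p = 0.159, SE 0.10), while Aurkb and Birc5, members of the chromosomal passenger complex, were at -0.14 and -0.21. The transcript that stood for Birc5 was a 3-exon isoform. The spindle motor Kif11 was at 0.19 (edgeR adjusted p = 0.2195, SE 0.090), with every Asxl2-/- library above the controls of its kind, and the spindle assembly factor Tpx2 and the kinetochore motor Cenpe were at -0.04 and 0.05.

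Cdc20, the activator of the anaphase-promoting complex, was at 134 and 131 CPM against 172 CPM in the gene-count files and at 182 CPM against 198 and 241 CPM in the exon-count files. Its 10 exons were all below both controls in the exon-count files, and its log2 fold change was -0.32 (edgeR adjusted p = 0.119, SE 0.10). The checkpoint kinases Bub1b and Bub1 were at -0.17 and -0.02. The 2 genes of chromosome structure lay on the other side. Top2a, the topoisomerase that untangles sister chromatids, was at 1176 and 1226 CPM against 1106 CPM and at 1481 CPM against 1298 and 1458 CPM, a log2 fold change of 0.11 (edgeR adjusted p = 0.455, SE 0.091). Mki67, the proliferation antigen Ki-67 that coats mitotic chromosomes, was at 1158 and 1277 CPM against 1056 CPM and at 878 CPM against 754 and 829 CPM, a log2 fold change of 0.18 (edgeR adjusted p = 0.266, SE 0.094). In both genes the Asxl2-/- libraries were above the controls of their kind, and Cdc20 and Top2a, whose promoters are shown above, both hold a CHR match. Among mitotic members with a CHR match the median was -0.08 (9 genes), and without one it was -0.04 (4 genes).

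The S-phase class was then set against the mitotic class within each library, a measure that no scaling between libraries touches. Levels were expressed as CPM per kilobase of transcript, so that genes of different length can be compared. In the gene-count files the highest members were Pcna (260 to 269 CPM per kb), Mcm6 (247 to 262) and Top2a (212 to 235), and the lowest were Orc1 (7.95 to 11.9) and E2f2 (7.61 to 10.6). The median log2 CPM per kb of the S-phase members minus that of the mitotic members was -0.64 and -0.67 in Asxl2-/- replicates 1 and 3 and -0.37 in control replicate 2. It was -0.55 in Asxl2-/- replicate 2 and -0.40 and -0.28 in control replicates 1 and 3. S-phase transcripts were thus lower relative to mitotic transcripts in each Asxl2-/- library than in any control library, in both kinds of file. With so few libraries such a separation is common: of single genes tested, 23.3% lay below and 25.4% above every control of their kind. No such share was computed for differences between classes of genes.

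The same direction was seen in a score taken as the median over the members of a class. It summarises the same 6 libraries and is not further support. For each member the deviation from its mean over the 6 libraries was used, in log2 CPM with the file kind removed. The S-phase minus mitotic score was -0.037, -0.017 and -0.12 in Asxl2-/- replicates 1 to 3 and 0.042, 0.11 and 0.026 in control replicates 1 to 3, without overlap. It averaged -0.058 ± 0.054 in Asxl2-/- and 0.060 ± 0.045 in control libraries (SD, n = 3), a difference on the log2 scale that is small beside the Ccne1 difference. The S-phase score alone was -0.087, -0.055 and -0.14 in Asxl2-/- and -0.015, 0.13 and 0.15 in control replicates 1 to 3, and the mitotic score was -0.049, -0.038 and -0.024 against -0.057, 0.022 and 0.13. Control replicate 1 was thus the lowest control in both classes, and in the mitotic class it lay below all Asxl2-/- libraries. As a share of all counts, the S-phase members took 0.581% and 0.561% in the Asxl2-/- gene-count files against 0.595% in the control one, and the mitotic members took 0.518% and 0.532% against 0.4605%. In the exon-count files the S-phase share was 0.648% against 0.661% and 0.675%, and the mitotic share 0.489% against 0.4625% and 0.477%. The mitotic share, to which the abundant Top2a and Mki67 contribute most, was above the controls in every Asxl2-/- library. These shares divide by raw totals, without the TMM scaling of the CPM values. The TMM factors were 1.104, 0.967 and 1.085 in Asxl2-/- replicates 1 to 3 and 0.981, 0.988 and 0.89 in control replicates 1 to 3. Scaled by these factors, the mitotic share of Asxl2-/- replicate 2 lay between those of control replicates 1 and 3, so the groups were no longer separated. The TMM-scaled mitotic median was 58.6 and 60.2 CPM per kb in Asxl2-/- replicates 1 and 3 against 61.2 in control replicate 2. In the exon-count files it was 74.1 in Asxl2-/- replicate 2 against 68.8 and 77.7 in control replicates 1 and 3.

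**Figure D5:**
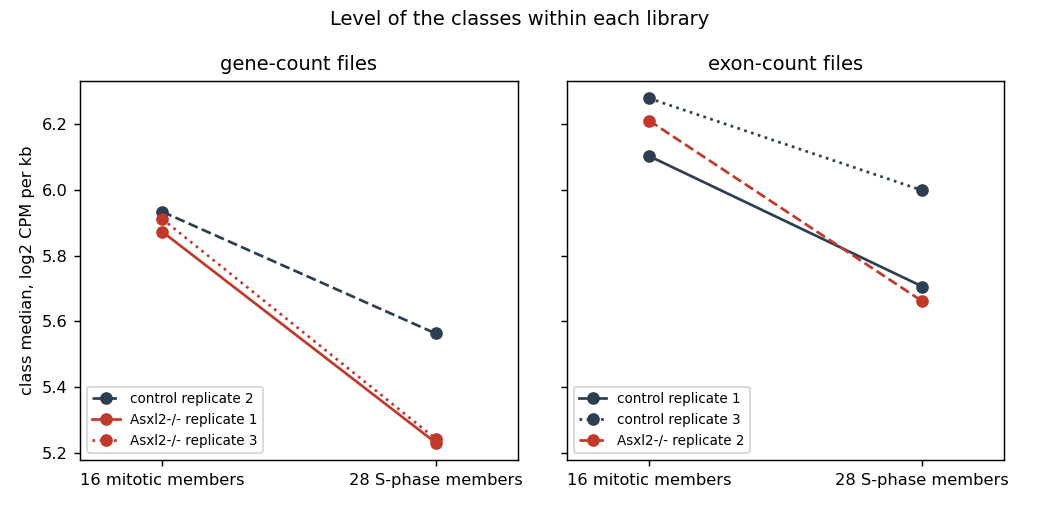
Median level of the 16 mitotic and the 28 S-phase members in each library, in log2 CPM per kb, with a line for each library and the 2 kinds of file in separate panels. Lines of Asxl2-/- libraries (red) drop more steeply from the mitotic to the S-phase median, by 0.55 to 0.67, than lines of control libraries, which drop by 0.28 to 0.40.

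Other genes of the same pathways were counted from lists that hold no member. Of 49 other replication genes none was called by edgeR, 7 (14.3%) were lower and 1 was higher at an unadjusted p under 0.05, against 12.6% and 15.0% of all genes, and 22 (44.9%) were below every control of their kind, against 23.3%. Their median log2 fold change was -0.11. The smallest p was that of Dna2, a nuclease-helicase of Okazaki fragment processing, at -0.38 (edgeR adjusted p = 0.091, SE 0.10), and Cdc25a, the phosphatase that activates Cdk2, was at -0.35 (edgeR adjusted p = 0.105). Of 58 other mitotic genes tested, 2 were lower and 3 higher at an unadjusted p under 0.05, against the same 12.6% and 15.0%. In this list 12 genes (20.7%) were below and 7 (12.1%) above every control of their kind, against 23.3% and 25.4% of all genes, and the median was -0.05. Only Cdc25b passed the threshold. Cdc25b, a phosphatase that activates Cdk1, was at 81.8 and 79.3 CPM against 41.8 CPM in the gene-count files and at 92.6 CPM against 63.3 and 49.7 CPM in the exon-count files. It rose in Asxl2-/- cells, with a log2 fold change of 0.83 (edgeR adjusted p = 0.036, SE 0.13), a call lost without Asxl2-/- replicate 1 (0.145), Asxl2-/- replicate 3 (0.0896), control replicate 2 (0.144) or control replicate 3 (0.139).

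Regulators upstream of both classes were examined in the same way. Of 16 E2F, Rb and DREAM genes none was called by edgeR, and the median log2 fold change was 0.02. At an unadjusted p under 0.05, 1 was lower and 3 were higher, against 12.6% and 15.0% of all genes. E2f4, a repressor E2F of quiescent cells, was at -0.69 (edgeR adjusted p = 0.0597, SE 0.14), and E2f7, a repressor made in S phase, was at 0.56 (edgeR adjusted p = 0.077, SE 0.13). All 7 quiescence-linked genes had a positive fitted fold change, with a median of 0.43. In 5 of them it was positive in both kinds of file, against 33.5% of all genes (Cdkn1a and Foxo3 were at -0.03 and -0.08 in the exon-count files). Of the 7 genes, 3 were above every control of their kind, against 25.4% of all genes. One of these passed the threshold, Cdkn1c, which encodes the Cdk inhibitor p57 of quiescent stem cells. It was at 9.79 and 6.52 CPM against 0.59 CPM in the gene-count files and at 5.19 CPM against 1.29 and 0.80 CPM in the exon-count files. Cdkn1c rose by a log2 fold change of 2.96 (edgeR adjusted p = 0.034, SE 0.44), with 3.598 and 2.31 in the 2 kinds of file, a call lost without Asxl2-/- replicate 1 (0.0958), Asxl2-/- replicate 3 (0.077), control replicate 2 (0.0613) or control replicate 3 (0.160). The Cdk inhibitor Cdkn1b was at 0.54 (edgeR adjusted p = 0.1435).

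Markers of other cell types in the sorted population were summed within each library. The 12 erythroid markers summed to 1373 and 2416 CPM in the Asxl2-/- gene-count files against 3062 CPM in the control one. In the Asxl2-/- exon-count file they summed to 1731 CPM against 3680 and 5090 CPM. Of the 12, 8 were below every control of their kind, against 23.3% of all genes. The 8 stem cell markers summed to 313 and 279 against 97.7 CPM and to 248 against 187 and 115 CPM. Of the 8, 5 were above every control of their kind, against 25.4% of all genes. The 7 B cell markers summed to 150.0 and 158 against 49.4 CPM and to 158 against 54.9 and 37.6 CPM. The 7 megakaryocyte markers summed to 377 and 307 against 151 CPM and to 838 against 359 and 222 CPM. All B cell and megakaryocyte markers were above every control of their kind, against the same 25.4% of all genes. The 9 myeloid markers were lower in the Asxl2-/- gene-count files (4588 and 2540 against 8310 CPM) and higher in the Asxl2-/- exon-count file (6729 against 2575 and 5047 CPM). The 6 T and NK cell markers also went in opposite directions, with 139 and 112 against 156 CPM in gene-count and 166 against 127 and 125 CPM in exon-count files. The 4 endothelial markers summed to 120 and 88.4 against 99.4 CPM and to 108 against 84.1 and 73.7 CPM. No list had a marker at 0 in all libraries. The part of these cell types in the levels of the replication and mitosis genes was not tested.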

How the data were processed

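RNA was sequenced from LSK cells of 3 Asxl2-/- and 3 control mice. The authors deposited raw counts per RefSeq transcript or per exon on mm10, with replicates not pooled. The submitters' processing notes name STAR, featureCounts and DESeq2, with no role or version, and the methods of the study describe poly(A)-selected, unstranded libraries of 3 biological replicates per group. Each symbol was represented by its longest transcript, and exon counts were summed over it. Counts were tested with edgeR 4.0.16 in R 4.3.3 (quasi-likelihood test, TMM scaling, filterByExpr, file kind plus group, 3 residual degrees of freedom), two-sided, with Benjamini-Hochberg adjustment over all genes tested and a threshold of 0.05. CPM are counts per 1000000 of the TMM-scaled library. Means and SDs of log2 CPM had the fitted effect of the file kind removed from the same 6 libraries, so these SDs are too small. Exon ratios compare 1 Asxl2-/- with 2 control libraries and carry no test. Alternatives used DESeq2 1.42.0 and limma 3.58.1. The fit was tested on simulated data with log2 changes of 1 or 2 in 200 genes. It was not tested at changes as small as those of most members. The members, gene lists and named genes (fixed examples of each role, and the 5 members of each class with the smallest p) were chosen with earlier results of these data known. Totals of the exon-count files can overstate depth.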

Additional observations from a re-analysis of the deposited data

How the results depend on the processing

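The 331 genes past the threshold became 2278 with DESeq2, 161 with library size only and 5179 with a replicate block beside the kind of file (1 residual degree of freedom), and 9 to 1312 when 1 library was left out. The 0 S-phase members past it became 8 with DESeq2, 1 with limma-voom, 1 without the covariate for the kind of file, 12 with the replicate block beside the kind, 1 with the block and no kind, and 0 to 6 with 1 library left out. The 0 mitotic members became 2 with DESeq2, 3 with the replicate block beside the kind and 0 to 2 with 1 library left out. Replicate numbers were not shown to pair the mice, since deviations of same-numbered libraries correlated at 0.31, 0.041 and 0.0066 and Asxl2-/- replicate 2 correlated best with control replicate 3 (0.21). S-phase members lower at an unadjusted p under 0.05 went from 11 to 7 without the covariate, 4 with the block and no kind, and 5 to 15 with 1 library left out. Mitotic ones went from 3 to 5 with DESeq2, 0 with the block and no kind, and 0 to 5 with 1 library left out. These unadjusted counts were alternatives chosen after seeing the data. So were the counts below every control under other scalings, which are not given here, and those without control replicate 1. Without control replicate 1, mitotic members below every control of their kind numbered 9 in place of 5, and S-phase members 20 in place of 15.

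The S-phase median of -0.18 was -0.077 with library size only, -0.28 without the covariate and -0.29 with the block and no kind. It was -0.25 in the gene-count files alone and -0.13 in the exon-count files alone. The mitotic median of -0.068 was 0.033, -0.14 and -0.14 with library size only, without the covariate and with the block and no kind. With 1 library left out the median log2 fold change of the mitotic members was -0.12 to -0.012. With library size only the median of all genes was itself 0.099. The difference of the class medians, -0.11, kept its sign in every alternative. It was -0.19 in the gene-count files alone, which hold 1 control library, and -0.067 in the exon-count files alone. With 1 library left out it was -0.19 (without Asxl2-/- replicate 2) to -0.066 (without control replicate 2). Leaving out Rrm2, Ccna2, Top2a and Mki67 gave an S-phase median of -0.17, a mitotic median of -0.081 and a difference of -0.087. Members near 0 changed sign, and the cause was not tested. With library size only, log2 fold changes were 0.071 for Pole, 0.098 for E2f1, 0.00025 for Ccna2, 0.047 for Ccnb1, 0.095 for Ccnb2, 0.019 for Cdk1, 0.055 for Tpx2 and 0.080 for Bub1. Without the covariate they were -0.096 for Mcm6, -0.076 for Prim1, -0.0056 for Pcna, -0.11 for Tyms, 0.0089 for E2f1 and -0.0056 for Cenpe, and with the block and no kind -0.10, -0.077, -0.0099, -0.12, 0.0067 and -0.0032. In the gene-count files alone they were -0.097 for Mcm6, 0.068 for Pole, -0.032 for Pcna, -0.13 for Tyms and 0.018 for Bub1, and in the exon-count files alone 0.024 for Rfc3, 0.18 for E2f1 and 0.00055 for Ccnb2. Mcm6 and Tyms were at -0.046 and -0.044 with DESeq2, -0.046 and -0.044 with median-ratio scaling and -0.0058 and -0.0038 with no filter, and Mcm6 was at -0.0017 with TMM within each kind. E2f1 was at 0.0033 with limma-voom, 0.0097 with at least 10 counts in every library and 0.0023 outside X and Y, and Ccnb2 at 0.0071 with at least 10 counts. With 1 library left out, the ranges that crossed 0 were -0.085 to 0.092 for Mcm6, -0.13 to 0.080 for Pole, -0.020 to 0.14 for Pcna, -0.225 to 0.022 for Rfc3, -0.12 to 0.13 for Tyms, -0.18 to 0.18 for E2f1, -0.12 to 0.026 for Ccnb1, -0.025 to 0.014 for Ccnb2, -0.089 to 0.0084 for Tpx2, -0.020 to 0.10 for Cenpe and -0.072 to 0.030 for Bub1.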
